A study of Mus musculus with 12 samples.

Results

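Left ventricles of wild-type mice and of mice lacking Miat were compared 4 weeks after myocardial infarction (MI), with 3 ventricles per genotype. These 6 of the 12 arrays of the series were chosen by their titles, which name genotype, surgery and replicate, and no measured value entered the choice. Miat (MIAT in the labels, for myocardial infarction associated transcript) is a long noncoding RNA, a transcript that is not translated into protein. After an infarct, the lost heart muscle is replaced by a collagen scar, and the surviving ventricle remodels with changes in cytoskeleton, metabolism, inflammatory cells and matrix. The question here was how the infarcted ventricle without Miat differed from the infarcted ventricle with it.

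All 12 mice were male C57BL/6J, either wild type or systemic Miat knockout, and were studied after MI or sham surgery. The wild-type MI mice were 14, 13 and 13 weeks old (replicates 1, 2 and 3) and the knockout MI mice were all 16 weeks old, so genotype and age cannot be told apart. The same holds after sham surgery, with wild-type mice of 14, 14 and 13 weeks and knockout mice of 16, 15 and 15 weeks. The knockout allele is not described further in the sources used here. The remaining 6 arrays, 3 wild-type sham and 3 knockout sham, serve below as a reference for the level of each probe and in the estimate of spread. The series describes the ventricles as independent. In a whole ventricle, fewer cells of a type and less RNA per cell cannot be told apart.

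Every ventricle had an array of its own with 62939 spots, read in the single dye Cy3. A value is the log2 of the spot signal minus the 75th percentile of its array, so a value of 0 marks a bright probe and a difference of 1 is a 2-fold change. The share of non-control spots well above background ran from 83.9% to 88.1% over the 6 arrays, and the number of arrays limits the precision. All 6 lay on slide 1, where the 3 knockout MI arrays and wild-type MI replicate 3 shared row 2 and wild-type MI replicates 1 and 2 lay in row 1. Wild-type MI replicate 2 stood apart: its median absolute distance from the mean of the other 2 arrays of its group was 0.30, against 0.13 to 0.22 for the other 5 arrays. Apart from control spots for Gapdh and Pgk1, the probes of 15 genes could be named from the files. Miat itself and markers of heart cell types were therefore not analysed here, and neither the knockout labels nor the tissue were checked against them.

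The 15 named genes are mostly reference genes of the cytoskeleton, protein folding, immunity, lysosomes, metabolism, transcription, translation, nucleotide salvage and iron uptake. Of these, 5 were lower in the knockout, 0 were higher and 10 did not pass (limma, adjusted p under 0.05 over all probes); 7 of the 15 had an unadjusted p under 0.05. Among all 51754 probes tested, 11.6% were called lower and 13% higher. The median log2 difference of knockout minus wild type was -0.19 over the 15 genes and 0.05 over all probes. In a fit of the 6 MI arrays alone 0 of the 15 genes passed, with adjusted p-values from 0.068 to 0.11 for those 5, and 8 had an unadjusted p under 0.05. Quantile normalization called 3 of the 15, with 1 higher and 2 lower, and the authors' processed values called 2, with 1 higher and 1 lower. Leaving out knockout MI replicate 1 gave a count of 1, leaving out its replicate 2 a count of 0, and leaving out wild-type MI replicate 2 a count of 2. With age as a covariate it was 0, with 1 gene at an unadjusted p under 0.05. That fit cannot separate age from genotype, since every knockout MI mouse was older than every wild-type MI mouse.

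Promoters are shown for 4 of the 5 genes that were lower, those with an entry in the RefSeq promoter table (13 of the 15 genes had one, GRCm38.p6). Each run is the 250 bases before the gene's start, 5′ to 3′ on the gene's strand. Capitals mark matches, on either strand, to the TATA box letters TATAAA, the CCAAT box letters CCAAT and the GC box letters GGGCGG. The windows are chr11:6415617-6415866 (plus strand) for Ppia, chr15:98934391-98934640 (minus) for Tuba1b, chr5:130003050-130003299 (minus) for Gusb and chr2:122147437-122147686 (plus) for B2m.
Ppia: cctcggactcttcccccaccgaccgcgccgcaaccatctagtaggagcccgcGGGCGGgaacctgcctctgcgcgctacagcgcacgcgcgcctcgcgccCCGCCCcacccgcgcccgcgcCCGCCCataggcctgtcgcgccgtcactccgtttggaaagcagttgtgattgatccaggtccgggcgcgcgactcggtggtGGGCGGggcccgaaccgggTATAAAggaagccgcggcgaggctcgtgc
Tuba1b: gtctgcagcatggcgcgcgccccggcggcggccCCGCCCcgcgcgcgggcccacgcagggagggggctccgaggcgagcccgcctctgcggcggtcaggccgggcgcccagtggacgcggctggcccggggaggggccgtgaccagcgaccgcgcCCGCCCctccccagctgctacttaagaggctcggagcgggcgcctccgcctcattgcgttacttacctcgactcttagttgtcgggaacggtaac
Gusb: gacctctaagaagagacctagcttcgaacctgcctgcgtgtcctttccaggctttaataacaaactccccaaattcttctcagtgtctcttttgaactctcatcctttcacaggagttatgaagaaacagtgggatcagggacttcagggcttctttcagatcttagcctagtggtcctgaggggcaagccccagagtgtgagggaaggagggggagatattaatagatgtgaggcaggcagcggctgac
B2m: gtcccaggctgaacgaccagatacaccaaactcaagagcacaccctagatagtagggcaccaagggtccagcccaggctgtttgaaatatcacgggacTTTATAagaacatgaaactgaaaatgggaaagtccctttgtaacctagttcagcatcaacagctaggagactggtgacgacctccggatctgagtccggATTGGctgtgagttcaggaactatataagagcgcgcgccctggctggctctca

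No motif of these 3 was found in all 4 windows. Ppia held 4 GC boxes and a TATA box that starts 29 bases before the gene's start, and Tuba1b held 2 GC boxes. B2m held a CCAAT box 53 bases before its start and the TATA letters 152 bases before it. The Gusb window held no match to these letters. Of the 32851 promoters in the table, 12.4% held the TATA letters, 33.9% the CCAAT letters and 32.7% the GC box letters in a window of this length. A match is a run of letters, not a measured binding site.

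The protein folding genes split. Ppia, which encodes cyclophilin A, a prolyl isomerase, lay at 5.84, 6.19 and 6.44 in knockout replicates 1, 2 and 3, and at 6.99, 7.48 and 7.04 in wild type. Every knockout array was below every wild-type array. The difference was -1.01 (SE 0.21, adjusted p = 0.016, limma), from a wild-type mean of 7.17 ± 0.27 to a knockout mean of 6.16 ± 0.30 (SD, n = 3 per group), or 2.02-fold lower. Ppia did not pass in the authors' values (-0.67, adjusted p = 0.053, limma) or without knockout MI replicate 2 (adjusted p = 0.057, limma). Hsp90ab1, a cytosolic HSP90 chaperone, read 5.63, 5.57 and 5.45 in knockouts against 5.49, 5.55 and 5.85 in wild-type mice, with overlapping groups. Its difference of -0.08 (SE 0.11) did not pass, and its sign turned under quantile normalization (0.21).

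Both cytoskeletal genes were lower in the knockout. Tuba1b, an alpha-tubulin of the microtubules, lay at 6.27, 6.35 and 6.44 in the knockout against 6.96, 7.30 and 6.94 in wild type. The groups did not overlap, the knockout arrays spanned less than the wild-type arrays, and the difference was -0.71 (SE 0.15, adjusted p = 0.017, limma). Actb, the cytoplasmic beta-actin, lay at 4.45, 4.35 and 4.74 in the knockout and at 5.12, 5.82 and 5.17 in wild type. Wild-type replicate 2 was the highest of the 6 arrays for both genes. The Actb difference was -0.85 (SE 0.21, adjusted p = 0.023, limma), and without wild-type replicate 2 it was -0.63 and did not pass. Under quantile normalization the differences were -0.28 for Tuba1b and -0.54 for Actb, and neither passed. In the authors' values they were -0.35 and -0.54, again without passing. Neither gene passed without knockout MI replicate 1 (-0.67 for Tuba1b and -0.82 for Actb) or replicate 2 (-0.71 and -0.77).

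The lysosomal and immune genes were lower as well. Gusb encodes beta-glucuronidase, a lysosomal hydrolase, and lay at 1.13, 1.22 and 1.52 in the knockout against 1.80, 2.48 and 1.80 in wild type. The groups did not overlap, and the difference was -0.74 (SE 0.21, adjusted p = 0.030, limma). Gusb also passed with quantile-normalized data (-0.56) and with the values the authors deposited (-0.56), but not without wild-type MI replicate 2 (-0.51) or knockout MI replicate 1 or 2, nor in the arrays of slide 1 alone (adjusted p = 0.056, limma). B2m encodes beta-2 microglobulin, which pairs with the heavy chains of MHC class I, and lay at 5.75, 5.70 and 6.74 in the knockout and 6.63, 7.35 and 6.97 in wild type. Knockout replicate 3 lay inside the wild-type range, and the difference was -0.92 (SE 0.27, adjusted p = 0.034, limma). B2m did not pass under quantile normalization (-0.52), in the authors' values (-0.58), in the arrays of slide 1 alone or without any one of 5 arrays (knockout MI replicates 1 and 2, wild-type MI replicate 2, and replicate 2 of either sham group).

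Among the metabolic genes no difference passed. Gapdh, a glycolytic enzyme, lay between 8.16 and 8.30 on the knockout arrays and between 7.89 and 8.14 on the wild-type arrays. Each knockout array exceeded each wild-type array, by a mean of 0.23 (SE 0.12, adjusted p = 0.17, limma). Gapdh did pass as higher with quantile-normalized data (0.57) and with the values the authors deposited (0.60), each with an adjusted p = 0.013 in limma. Separate control spots at the 3′ end of Gapdh were higher in the knockout by 0.29. The groups were only just apart there, with the lowest knockout array at 7.281 and the highest wild-type array at 7.278. Control spots at the 5′ end were higher by 0.18 with overlap. The exact two-sided permutation p was 0.1 and 0.6, where 0.1 is the smallest possible with 3 against 3. Adjusted over 10 array measures, these were 0.33 and 0.67. Control spots of Pgk1, a further glycolytic enzyme, differed by -0.03 at the 3′ end and by 0.08 at the 5′ end, with exact two-sided permutation p = 0.8 and 0.6. Gk, which encodes glycerol kinase, was at 2.89, 2.97 and 2.75 in the knockout against 2.67, 2.16 and 2.54 in wild type, a difference of 0.41 (SE 0.26) that did not pass although the groups did not overlap. G6pd2, a retrotransposed copy of the glucose-6-phosphate dehydrogenase gene, and Ldhal6b, a lactate dehydrogenase A-like gene, differed by 0.11 (SE 0.08) and 0.05 (SE 0.11). Signal from closely related copies of these genes could not be separated from their own.

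The genes of transcription, translation, nucleotide salvage and iron uptake did not pass in the 12-array fit. Rpl13a, a protein of the large ribosomal subunit, lay at 2.19, 2.19 and 2.67 in the knockout and 2.63, 3.05 and 2.94 in wild type, a difference of -0.52 (SE 0.20, adjusted p = 0.070, limma). It passed without knockout MI replicate 3, the array that overlaps the wild-type group (-0.68, adjusted p = 0.047, limma). It also passed without knockout sham replicate 1 (adjusted p = 0.032, limma). Slide as a block gave the same result, since only that array lay on another slide than the rest of its group. Hprt, the purine salvage enzyme, differed by -0.42 (SE 0.18) without overlap, and Nono, an RNA- and DNA-binding protein of paraspeckles, by -0.19 (SE 0.10). Tbp, the TATA-binding protein, differed by 0.12 (SE 0.09). Tfrc, the transferrin receptor, spread widely within wild type, at 2.25, 3.60 and 1.60, and its difference of 0.75 (SE 0.46) did not pass. It was 1.31 without wild-type MI replicate 2 and 0.31 without wild-type MI replicate 3, and passed in neither. The 20 spots of a gene within an array, which measure technical spread alone, had a median SD from 0.03 for Actb to 0.06 for G6pd2.

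**Figure D1:**
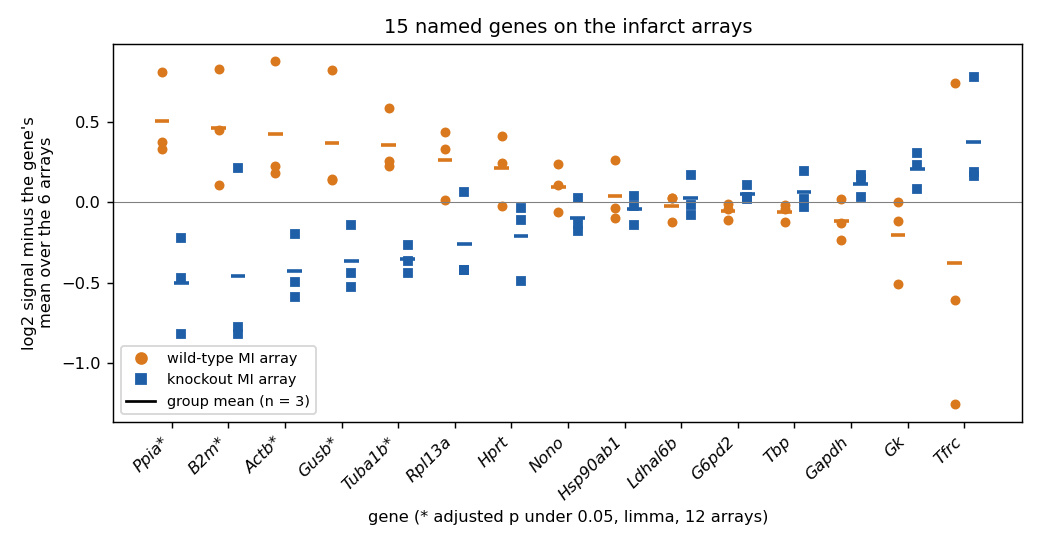
Log2 signal of the 15 named genes on the 6 infarct arrays, each minus the gene's mean over these arrays; circles are wild-type arrays, squares knockout arrays, lines group means, and genes are ordered by their difference. The 5 genes marked as passing lie at the left with wild type above the knockout, and B2m is the one of them whose groups overlap.

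Unnamed probes showed far larger differences. The 2 that were highest in the knockout carry neighbouring design numbers. Probe ASMM10P041158 lay at 7.20, 6.33 and 5.50 in the knockout and 2.88, 3.22 and 3.08 in wild type, a difference of 3.28 (SE 0.36, adjusted p = 0.0019, limma). Probe ASMM10P041157 lay at 6.13, 5.40 and 4.81 against 2.32, 2.58 and 2.55, a difference of 2.96 (SE 0.27). The probe with the number after these was also higher, by 2.54, and was singled out after its value was seen. The genotype gap of these probes was present without infarction too: in sham ventricles ASMM10P041158 averaged 5.24 ± 0.38 in knockouts against 2.91 ± 0.29 in wild-type mice (SD, n = 3 per group). For ASMM10P041157 the sham levels were 4.47 ± 0.19 and 2.76 ± 0.23.

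In the other direction, ASMM10P054189 lay at -2.80, -2.55 and -2.69 in the knockout and 2.82, 3.93 and 2.33 in wild type. The difference was -5.71 (SE 0.46, adjusted p = 0.00070, limma), or 52.3-fold lower, and the knockout arrays lay within a narrow band. The same narrow band held all 3 knockout sham arrays (-2.65, -2.73 and -2.59), while the wild-type sham arrays lay at -1.36, 0.44 and -1.18. Probe ASMM10P053763 was not well above background on any knockout array, MI or sham, and lay at -1.03, -0.74 and -1.90 in wild-type MI. It was at least 9.78-fold lower in the knockout, setting the wild-type mean against the knockout arrays' limit of detection (limma adjusted p = 0.0037). Under normexp background correction its fitted difference was -1.99, smaller than that bound, and with wild-type MI replicate 3 alone it did not pass (adjusted p = 0.082, limma). Its wild-type sham arrays spread from -6.55 (replicate 1) over -5.12 (replicate 3) to -2.76 (replicate 2). These 4 probes also passed in the fit of the 6 MI arrays alone, with adjusted p-values from 0.0043 to 0.035 in limma. They were chosen by their difference on those same arrays, so this is no separate support. None of them passed by a plain test per probe on the 6 MI arrays. The same held with a replicate block within those arrays, and with age as a covariate.

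**Figure D2:**
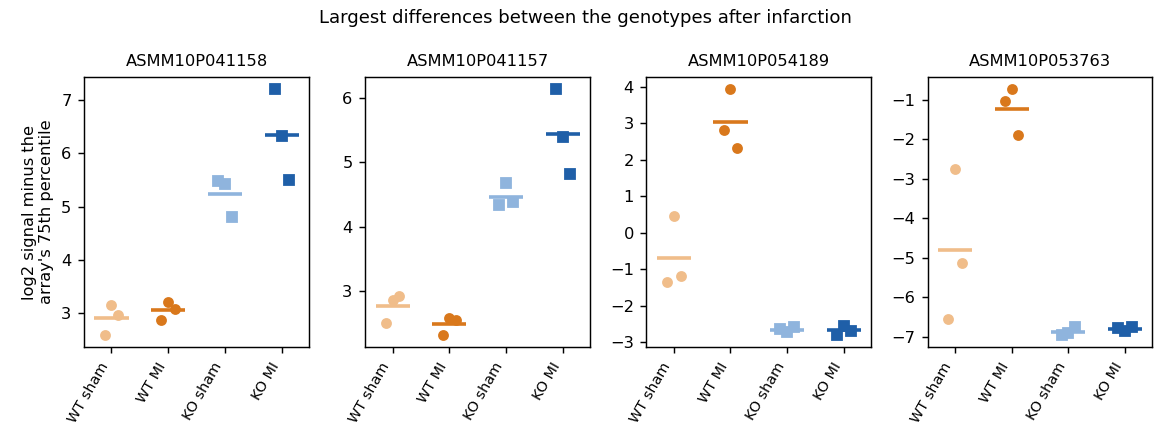
Log2 signal minus the array's 75th percentile for 4 unnamed probes in all 12 arrays, with points for arrays and lines for group means (n = 3); KO is knockout, WT wild type, and each panel has its own scale. The first 2 probes are higher in both knockout groups, and for the other 2 all 6 knockout arrays lie at a flat low level while wild type is variable after sham and high after MI.

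ASMM10P053763 was 1 of 84 probes that were well above background on all 3 wild-type MI arrays and on none of the 6 knockout arrays. Of the 84, 79 were called lower, and 41 were called in the 6 arrays alone. Their median level was -3.55, -3.11 and -3.72 on the wild-type MI arrays and between -5.62 and -5.12 on the knockout arrays. On the wild-type sham arrays 3, 23 and 7 of the 84 were well above background (replicates 1, 2 and 3), so none of these probes marked all wild-type ventricles. In the MI arrays alone, 121 probes were detected on all 3 wild-type and on 0 of the knockout arrays, and 163 in the reverse pattern. The sizes of these 2 sets differed: 58 of the 121 were at least 2-fold lower against the limit of detection, and 10 of the 163 were at least 2-fold higher. These sets were defined by the comparison itself and are given as a description.

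Across the whole array limma called 12743 of 51754 probes (24.6%), 6727 higher and 6016 lower in the knockout. Which direction held more calls changed with the scaling: median centring called 12127 with 6662 lower, normexp 11707 with 6447 lower, and quantile normalization 12261 with 5145 lower. The groups did not overlap for 46.4% of the probes tested, 27.6% with the knockout above and 18.8% with it below. Most differences were small, with a median absolute log2 difference of 0.32 and a 99th percentile of 1.55. Large changes were mostly decreases: 1795 probes were called more than 2-fold lower and 308 more than 2-fold higher, and past 4-fold the counts were 169 and 10. This excess of decreases was present under quantile normalization (1563 lower and 496 higher past 2-fold), median centring (2002 and 214), normexp background correction (920 and 61) and in the authors' values (1560 and 502). For the 1795 probes, the median level was -1.18, -1.26 and -0.95 on the knockout MI arrays, -0.01, 0.74 and -0.18 on the wild-type MI arrays, and between -1.45 and -0.84 on the 6 sham arrays of both genotypes. For the 308 probes, the medians were -1.43, -1.24 and -1.48 in knockout MI, -2.33, -3.08 and -2.26 in wild-type MI and between -1.84 and -1.52 in sham. In both sets the knockout MI arrays lay nearer to the sham arrays than the wild-type MI arrays did, which describes probes chosen for their difference between the MI groups.

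The count rests on few arrays. Its p-values use a spread pooled over the MI and sham groups of the 12-array fit, not the spread of the MI arrays alone. The groups were unequally spread. The median SD of a probe within a group was 0.21 in wild-type MI and 0.14 in knockout MI. It was 0.10 in wild-type sham and 0.17 in knockout sham. A fit of the 6 MI arrays alone called 377 probes (0.728%), 35 higher (0.0676%) and 342 lower (0.661%), of which 363 were among the 12743, and 17611 had an unadjusted p under 0.05. A fit of the 8 arrays of slide 1 called 6484. Leaving out knockout MI replicate 1, 2 or 3 gave 3969, 1049 or 8186 calls, and leaving out wild-type MI replicate 2 gave 4126. With age as a covariate it was 0, with 2353 probes at an unadjusted p under 0.05 in limma. Every knockout MI mouse was older than every wild-type MI mouse, so that fit cannot separate age from genotype. Its standard errors were larger. The Ppia difference was -1.02 (SE 0.56) with age and -1.01 (SE 0.21) without. For Tuba1b it was 0.09 (SE 0.29) with age and -0.71 (SE 0.15) without. A set of 344 probes was called with the same sign under the 75th percentile, quantile, median and normexp scalings, in the authors' values and in the 6 arrays alone, and 320 of them were lower in the knockout and 24 higher.

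**Figure D3:**
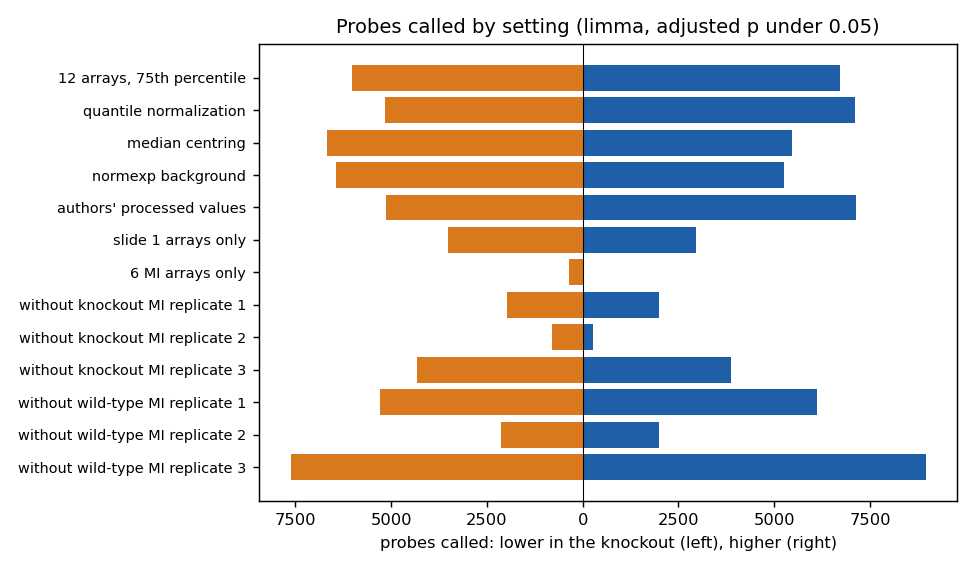
Number of probes called lower (left bars) and higher (right bars) in the knockout after MI under 13 settings, by limma at an adjusted p under 0.05. The 4 other scalings keep the total near 12743, while the 6 MI arrays alone and the fits without single arrays call fewer, except without wild-type MI replicate 3.

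The direction of the difference varied with the brightness of the probe. Probes were sorted by their mean over the 6 sham arrays, which are not part of the comparison. Among the 2713 brightest probes (a sham level of 4 and over), 25.8% were called lower and 3.43% higher, with a median difference of -0.31. In the 7963 probes between -1 and 0, 10.5% were lower and 19.0% higher, with a median of 0.13. Between 1 and 2 the median was -0.03. The 2377 dimmest probes, under -4, also leaned lower, with 15.5% lower, 6.35% higher and a median of -0.11. That range lies near the limit of detection, and a probe was tested only if detected throughout at least 1 MI group. The median of these probes lay above their sham level on all 6 MI arrays, by 0.11 to 0.36. The part of this filter in the lean of the dimmest probes was not tested. Per array, the brightest probes lay -0.18, -0.18 and -0.09 from their sham level in knockout MI and 0.05, 0.17 and 0.16 above it in wild-type MI (exact two-sided permutation p = 0.1, the smallest possible; 9 levels were compared). Under quantile normalization, which gives every array the same distribution, the median of the brightest probes was 0.015, and in the authors' values it was 0.0039. Of the 15 named genes, 7 fell in this brightest group and 4 of them were called lower (Ppia, Tuba1b, Actb and B2m), so their values are to be read against its median of -0.31.

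**Figure D4:**
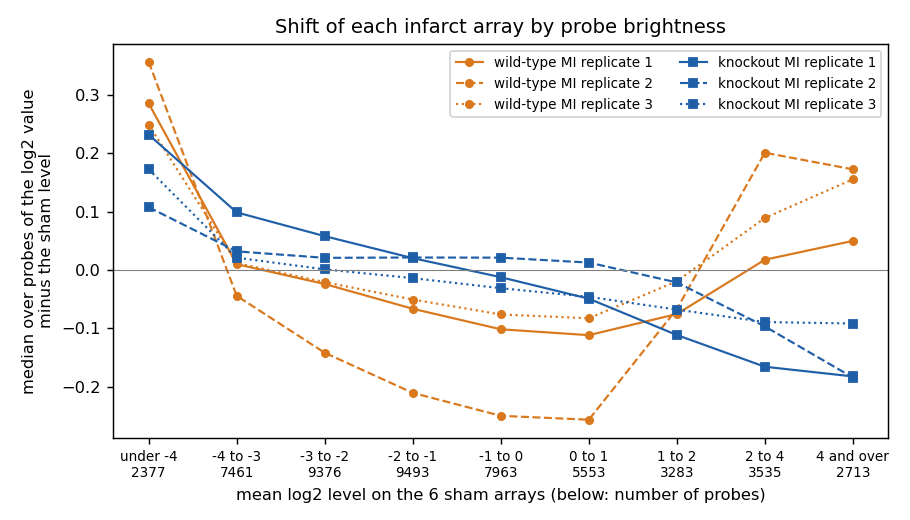
Median over probes of the log2 value minus the probe's sham level on each infarct array, for 9 ranges of sham level from dim to bright (number of probes beneath each). The 3 wild-type arrays run below the 3 knockout arrays from -4 to 1 and above them from 2 upwards and under -4, and wild-type replicate 2 departs most in the middle ranges. Probes under -4 were tested only if detected throughout at least 1 MI group.

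A larger share of the lincRNA-named probes was called higher in the knockout than lower, while most did not pass. Long intergenic noncoding RNAs (lincRNAs) are transcribed between protein-coding genes, and these classes are known here only by the wording of their design IDs, the human-named ones included. Of 1344 such probes tested, limma called 311 higher (23.1%) and 40 lower (2.98%), against 13% and 11.6% of all probes. Past 2-fold the class held 18 higher and 22 lower calls, against 308 higher and 1795 lower over all 51754 probes. The excess of large decreases seen over all probes was thus much smaller in this class. The median difference was 0.27, with 0.26 for the 800 human-named, 0.28 for the 476 mouse-named and 0.25 for the 68 lincRNA exon probes, against 0.04 for the 49780 probes of the main class. Relative to sham, the lincRNA-named probes had medians of 0.04, 0.04 and -0.03 on the knockout MI arrays and -0.15, -0.39 and -0.13 on the wild-type MI arrays (exact two-sided permutation p = 0.1, the smallest possible). The groups did not overlap, and the shift lay on the wild-type side, furthest in wild-type replicate 2. Without that array 131 were called, 109 higher and 22 lower. Without knockout MI replicate 1 there were 126 calls (101 higher), without its replicate 3 there were 210 (181 higher), and without its replicate 2 there were 25, of which 11 were higher and 14 lower.

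The classes were also set side by side at like brightness. At a sham level between -1 and 0, 77 of 189 lincRNA-named probes were called higher and 0 lower, a median difference of 0.36, while the 7691 probes of the main class at that level had a median of 0.12 with 18.3% higher. The class median was above 0 at each range of sham level under 2, from 0.10 under -4 to 0.40 between 1 and 2. It was below 0 for the 30 probes between 2 and 4 (-0.14, with 7 higher and 4 lower) and for the 21 brightest (-0.27, against -0.31 in the main class). The class median stayed above 0 under quantile normalization (0.23), median centring (0.22), normexp (0.12) and in the authors' values (0.24). Both strands named in the IDs behaved alike in the counts, with 155 of 674 plus-strand probes and 156 of 670 minus-strand probes higher. In the 6 MI arrays alone, of the 1344 lincRNA-named probes none was called higher and 9 were called lower. Over all probes that fit called 0.0676% higher and 0.661% lower. The 9 lower calls are to be read against these shares and do not by themselves show a reversal of the class. Probes named as negative controls had a median level of -5.61 ± 0.11 on the knockout MI arrays against -6.08 ± 0.12 on the wild-type MI arrays (SD, n = 3 per group; exact two-sided permutation p = 0.1). The knockout arrays lay higher after sham as well. The medians of these control probes there were -5.70, -5.39 and -5.64 in the knockout and -5.85, -6.00 and -6.01 in wild type. Their part in the difference of dim probes was not tested.

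**Figure D5:**
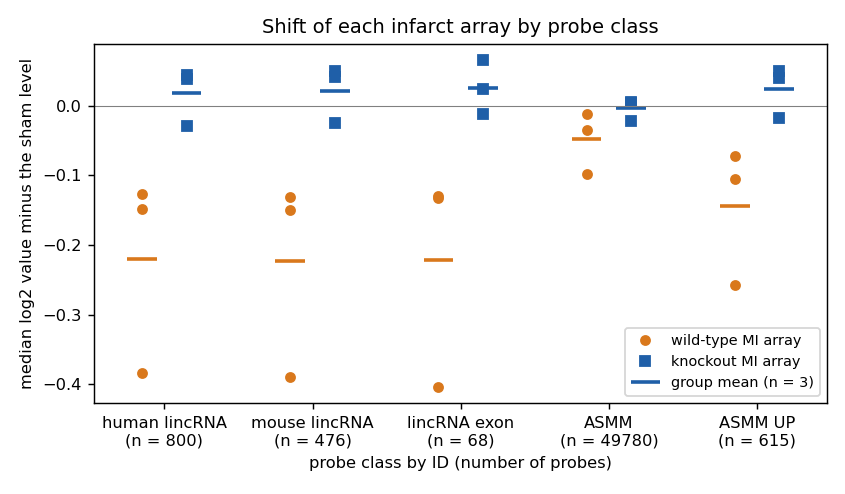
Median log2 value minus the sham level of each infarct array, by class of probe ID, with points for arrays and lines for group means (n = 3). In the 3 lincRNA-named classes the wild-type arrays lie between -0.40 and -0.13 and the knockout arrays between -0.03 and 0.07, while in the main class (ASMM) all 6 arrays lie within 0.1 of the sham level. In the class ASMM UP the wild-type arrays lie between -0.26 and -0.07 and the knockout arrays between -0.02 and 0.05.

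The same probes were then read in the 6 sham arrays, a genotype comparison whose group means share no array with those after MI. The sham arrays did enter the spread of the fit that called the probes, so the choice of probes was not independent of them. Probes called higher after MI had a median difference of 0.53 there and of 0.06 in sham, and 59.6% of them were above 0 in sham, against 52.5% of all probes. Probes called lower had medians of -0.77 after MI and -0.09 in sham, with 39.3% above 0. Few were called between the sham groups themselves in limma (10 probes higher and 2 lower in all, 0.0232% of those tested): 2 of the probes higher after MI and 2 of those lower after MI, all of them higher in the knockout in sham. A set of 320 probes was called lower in every scaling, in the authors' values and in the 6 MI arrays alone. Of these, 84.4% had the same sign in sham, at a median of -0.35. The genotype difference after MI differed from that after sham for 2016 probes (3.9%), 3 of the 15 named genes among them. The sham comparison crosses slides, since all wild-type sham arrays lay on slide 2 and knockout sham replicates 2 and 3 on slide 1.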

How the data were processed

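RNA of 12 ventricles was measured on 1-colour Agilent arrays after removal of ribosomal RNA, per the labels' protocols. The deposited scanner files hold spot intensity, background-subtracted and detrended per array (per the file headers; the submitters' processing notes name Agilent Feature Extraction, version 11.0.1.1), and flags per spot (other units). The authors' deposited series table holds log2 values (judged from their range and from a per-array correlation of at least 0.9988 with the log2 signal), with a median of 6.91 in each column and a normalization not given in the sources used here. Each log2 processed signal was set relative to the 75th percentile of its array (control spots left out). Spots flagged as outliers (35 to 63 on the 6 arrays) were set missing, leaving 29 missing probe values that the fit dropped, and repeat spots were averaged per probe. The test covered the 51754 of 60915 probes detected above background throughout at least 1 MI group.

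Groups were compared with limma 3.58.1 (R 4.3.3), with 1 mean per group over all 12 arrays; the 6 sham arrays enter only the spread. Called means a Benjamini-Hochberg adjusted p under 0.05. The fit was tested on simulated data. Transcript accessions of 15 probes were matched to symbols through RefSeq GRCm38.p6 (15 of 15); other probes carry design IDs not paired with genes. All 15 are given, with the 2 largest called differences of unnamed probes each way without overlap and detected on the brighter side. Lists for other pathways and cell types could not be applied. The members, lists and tests were chosen with earlier results of these data known. Alternatives are given in the closing section; fits with wild-type MI replicate 3 alone and quantile normalization of the 6 arrays were added after the data were seen. Normexp used the median spot signal with an offset of 50. Figures were drawn with matplotlib 3.10.9.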

Additional observations from a re-analysis of the deposited data

Results flagged for a closer look

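Of the 19 genes and probes named, 4 had a knockout minus wild-type difference after MI that differed from the one after sham surgery, by a test of the difference between both differences in the 12-array limma fit, which called 3.9% of all probes. The difference of differences was -1.42 for Ppia (SE 0.30, adjusted p = 0.037, limma), -0.92 for Tuba1b (SE 0.22, adjusted p = 0.046) and -1.37 for Actb (SE 0.30, adjusted p = 0.041). In sham ventricles the knockout minus wild-type values of these 3 genes were 0.41, 0.21 and 0.52. For ASMM10P054189 it was -3.75 (SE 0.66), with -1.96 in sham. That probe was chosen for its difference after MI, so its value is a description and no test. The sham arrays of the 2 genotypes lay mostly on different slides, and the part of the slide was not tested. Ppia, Tuba1b and Actb belong to the brightest probes (a sham level of 4 and over), which shifted as a group. Relative to sham level, the medians of these probes were -0.18, -0.18 and -0.09 in knockout MI and 0.05, 0.17 and 0.16 in wild-type MI. In sham they were -0.0825, 0.13 and 0.20 in the knockout and -0.127, -0.125 and -0.033 in wild type. The part of this shift in the 3 differences of differences was not tested, nor were they fitted under quantile normalization.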

How the results depend on the processing

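The count of 12743 probes stayed within 1.5 times under the other scalings, filters, eBayes with trend and robust, and slide as a block. The slide block gave the same 15666 calls as leaving out knockout sham replicate 1, and it cannot test slide in the MI comparison, which lies on slide 1. The count fell to 377 in the 6 MI arrays alone, 6484 on slide 1 alone, 2103 with a log2 minimum of 1, 3 by a plain test per probe on 6 arrays and 0 with age as a covariate, and ranged from 1049 to 16576 when single arrays were left out. Replicate numbers did not pair the samples (correlations of the deviations of same-numbered MI arrays of 0.04, -0.35 and -0.29; 0 of 3 knockout arrays correlated best with their own number). A replicate block over 12 arrays gave 8838 probes, with Gusb lost (adjusted p = 0.051) and Hprt gained (adjusted p = 0.034), and a replicate block within the 6 MI arrays gave 0 probes, 0 named genes and 0 lincRNA-named probes, with 12051 probes at an unadjusted p under 0.05 in limma. Of the named genes, 3 were called under quantile normalization, 2 in the authors' values, 3 on slide 1, 1 with the log2 minimum, and 0 in the 6 arrays alone, with age or by the plain test (4 at an unadjusted p under 0.05 in the last), with 0 to 6 across single arrays left out. The lincRNA-named count of 351 went to 9 in the 6 arrays alone, 166 on slide 1, 40 with the log2 minimum, 1 by the plain test and 0 with age, and from 25 to 473 across single arrays left out. The last 2 alternatives were chosen after seeing the data. With wild-type MI replicate 3 alone against the knockout MI arrays (1 row of the slide, the lone array assumed to vary like the other groups), 502 probes, 0 named genes and 13 lincRNA-named probes were called; with quantile normalization in the 6 arrays alone, 279, 0 and 4. Signs turned with age as a covariate for Tuba1b (0.091, SE 0.29), Hprt (0.53, SE 0.32) and the median of the brightest probes (0.11). That median also turned under quantile normalization with 12 or 6 arrays (0.015) and in the authors' values (0.0039). Hsp90ab1 turned under quantile normalization with 12 or 6 arrays (0.21), in the authors' values (0.21) and with wild-type MI replicate 3 left out, in a range from -0.154 to 0.027 across single arrays left out. Ldhal6b turned under quantile normalization with 12 or 6 arrays (-0.0045), in the authors' values (-0.0020), without knockout MI replicate 1 or wild-type MI replicate 2 (-0.0266 to 0.0977 across single arrays left out) and with wild-type MI replicate 3 alone (-0.0045). Probes near the limit of detection give only bounds.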
